A study of Mus musculus with 4 samples.

Results

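Genes that carry out or restrain regulated cell death were described in the liver of mice fed either a normal diet or a diet without methionine and choline (the MCD diet). The set was defined by gene symbol. It took the numbered caspases, gasdermins, NLRP proteins and receptor-interacting protein kinases, every gene named after Bcl2, and a short list of named partners such as Mlkl, Pycard, Fas, Xiap and Acsl4. It held 68 of the 22180 genes tested, each read from 1 row of the array. All animals were wild-type C57BL/6J males, a standard inbred strain, and were 6 weeks old when the diets began and stayed on them for 20 weeks. Each diet had 2 samples, each on its own Mouse Gene 2.1 ST array, which gives 1 log2 signal per transcript row. Choline is needed to make the phosphatidylcholine with which the liver exports lipoproteins, and removing it together with methionine is a common way to produce fatty, inflamed liver in mice. The labels do not say whether a sample was 1 animal or several, so p-values rest on the spread of these samples alone, pooled across genes.

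A cell can end itself in several ways. In apoptosis, proteins of the BCL2 family decide whether mitochondria are opened, or death receptors at the surface recruit an adaptor, and either way initiator caspases cut executioner caspases that dismantle the cell quietly. In pyroptosis, a sensor of danger signals assembles an inflammasome with the adaptor Pycard, the inflammasome activates an inflammatory caspase, and that caspase cuts gasdermin D into pores and matures the cytokines IL-1β and IL-18. In necroptosis, the kinases RIPK1 and RIPK3 activate MLKL, which ruptures the membrane. In ferroptosis, oxidised phospholipids kill the cell, and ACSL4 loads the membrane with the polyunsaturated fatty acids that are oxidised. Many of these proteins are switched on by cleavage or phosphorylation, which an RNA array does not measure.

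Inflammatory caspases and the necroptosis effector were the members with the largest rises in MCD diet livers, and an NLRP sensor and gasdermin D were the members that fell. At an adjusted p under 0.05 in limma, a linear model with pooled variance across genes, 9 of the 68 genes changed, 7 of them higher and 2 lower. Over all genes tested 9.98% changed, 6.37% higher and 3.62% lower, against 13.2%, 10.3% and 2.94% of the cell death genes. The median difference of the 68 genes was 0.03 on the log2 scale, against -0.03 over all genes. The diets' arrays did not overlap for 32 of the 68 genes (47.1%), against 54.2% of all genes. The share of all genes called depended on the arrays: with 1 array left out it was 4.73% to 6.73%, where 6 to 9 of the 68 genes were called (9 against 5.96% without normal diet replicate 1, 6 against 4.93% without normal diet replicate 2, 7 against 4.73% and 6.73% without MCD diet replicate 1 and 2). Of the 68 genes 7 (10.3%) differed by at least 1, called or not, against 5.25% of all genes.

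All 9 called genes lay above the median signal of the genes tested. Of the 29 cell death genes above that median 31.0% were called, where 18.1% of all genes above it were. Of the 39 below it 0 were called by limma, and 2 had an unadjusted p under 0.05. Of all 11090 genes below it 204 were called, and 1131 had an unadjusted p under 0.05. Over all 22180 genes at any signal 5362 had an unadjusted p under 0.05, to be set beside such counts in what follows. The dim genes included 18 NLRP and 9 gasdermin genes.

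**Figure D1:**
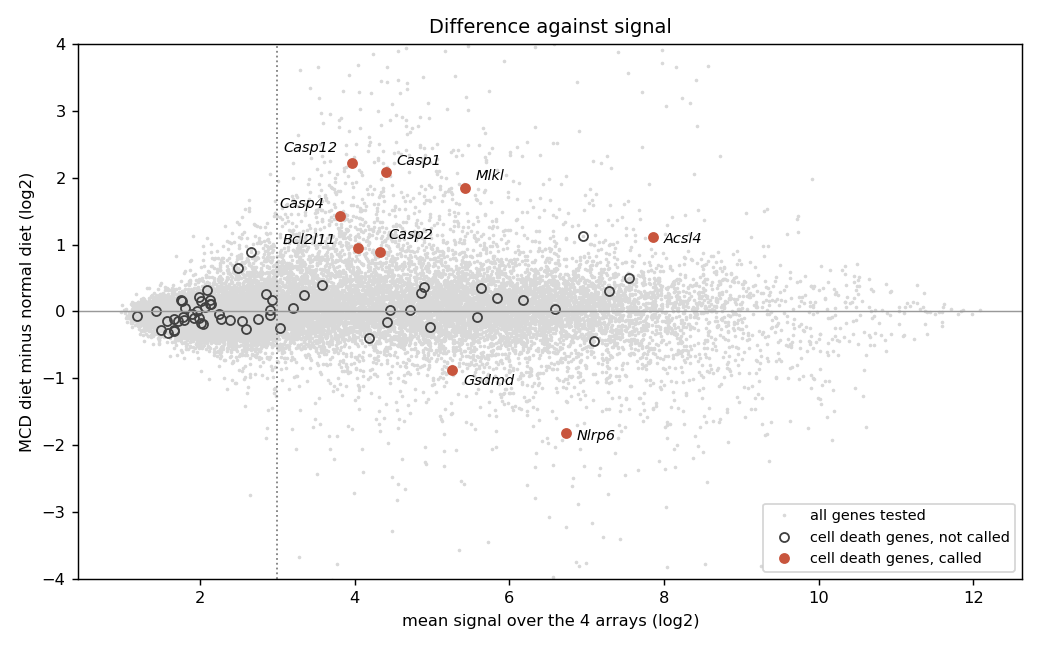
Difference between the diets (MCD diet minus normal diet, log2) against the mean signal over the 4 arrays (log2) for all genes tested (grey) and for the cell death genes (open when not called, filled when called). The dotted line marks the median signal of all genes, and 28 genes with differences beyond 4 lie outside the plot. The 9 called cell death genes lie to the right of the line, 7 above and 2 below a difference of 0.

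The inflammatory caspases rose together, all 3 of those measured. Casp1 encodes the caspase that inflammasomes activate. Its log2 signal was 3.63 and 3.08 with normal diet, and 5.42 and 5.47 with MCD diet. Both MCD diet arrays thus lay well above both normal diet arrays, a rise of 2.09 ± 0.20 (4.25-fold, limma adjusted p = 0.00276, with n = 2 per diet). Here and in what follows ± gives limma's standard error of a log2 difference, which pools variance across genes and is not from the gene's own arrays alone. Casp4 encodes the caspase that binds bacterial lipopolysaccharide inside the cell. Its signal was 3.31 and 2.89 on normal diet and 4.65 and 4.41 on MCD diet. No array of one diet fell within the range of the other, and the gene rose by 1.43 ± 0.18 (2.70-fold, limma adjusted p = 0.00709). Casp12, a relative of Casp1 that resides at the endoplasmic reticulum, read 2.90 and 2.81 on normal diet and 5.14 and 5.01 on MCD diet. The replicates of each diet lay within 0.2 of each other. The rise was 2.22 ± 0.12 (4.67-fold, limma adjusted p = 0.000601), the largest among the 68 genes. In whole liver, more or fewer cells of a type and more or less RNA per cell cannot be told apart.

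**Figure D2:**
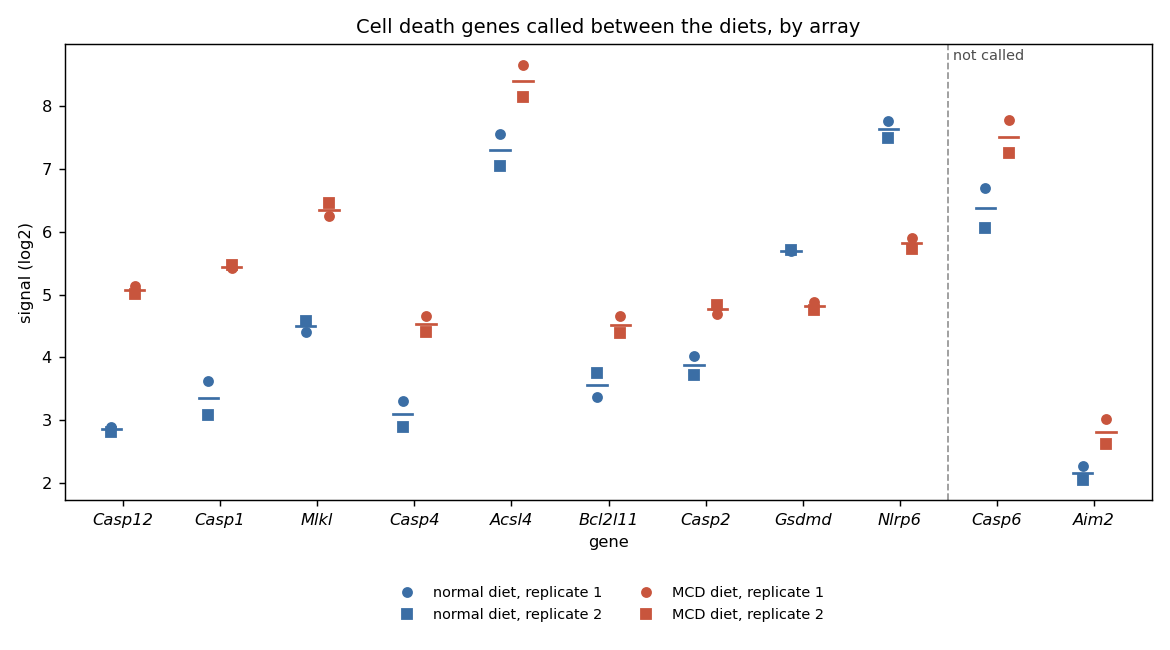
Signal (log2) on each array for the 9 called cell death genes and, right of the dashed line, for Casp6 and Aim2, the genes closest to the threshold that were not called. Circles and squares are replicates 1 and 2, bars are group means, blue is normal diet and red is MCD diet. The diets do not overlap for any of the 11 genes, and the levels of different genes cannot be set against each other.

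Casp1, Casp4 and Casp12 are neighbours. In the gene order of the RefSeq annotation of GRCm38.p6 they follow each other on chromosome 9 with no other protein-coding gene between them. The flanking genes were Gria4, a glutamate receptor, at -0.23 ± 0.15 (adjusted p = 0.426), and on the other side Pdgfd, a growth factor for mesenchymal cells, which rose by 2.11 ± 0.12 (limma adjusted p = 0.000601). The genes next beyond, Msantd4 and Ddi1, differed by 0.11 ± 0.22 and -0.10 ± 0.12. These neighbours were looked up after the values had been seen. The sequences of the start regions of the 4 genes with the largest rises are shown, since the caspases among them lie side by side and rose together. Each runs from 250 bases before to 50 bases after the transcript start, as given by RefSeq for GRCm38.p6, and capitals mark a match to one of the motifs described next.
Casp1 (chr9:5298267-5298566, plus strand): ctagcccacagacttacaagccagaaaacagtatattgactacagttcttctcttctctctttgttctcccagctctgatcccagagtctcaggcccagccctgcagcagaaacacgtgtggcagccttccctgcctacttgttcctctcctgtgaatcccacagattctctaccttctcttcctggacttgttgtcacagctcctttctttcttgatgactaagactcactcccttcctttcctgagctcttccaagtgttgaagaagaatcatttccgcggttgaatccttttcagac
Casp4 (chr9:5308599-5308898, plus strand): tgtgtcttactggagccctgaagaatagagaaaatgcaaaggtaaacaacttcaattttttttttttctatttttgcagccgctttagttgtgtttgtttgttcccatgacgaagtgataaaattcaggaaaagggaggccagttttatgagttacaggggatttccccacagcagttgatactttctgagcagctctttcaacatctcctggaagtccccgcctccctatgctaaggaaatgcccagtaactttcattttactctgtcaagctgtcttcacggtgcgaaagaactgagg
Casp12 (chr9:5345226-5345525, plus strand): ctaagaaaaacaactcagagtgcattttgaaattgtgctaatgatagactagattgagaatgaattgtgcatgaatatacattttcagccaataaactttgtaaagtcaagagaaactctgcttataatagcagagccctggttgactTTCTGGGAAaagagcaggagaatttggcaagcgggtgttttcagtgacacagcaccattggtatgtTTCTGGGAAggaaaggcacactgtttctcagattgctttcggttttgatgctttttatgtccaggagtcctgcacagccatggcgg
Mlkl (chr8:111338156-111338455, minus strand): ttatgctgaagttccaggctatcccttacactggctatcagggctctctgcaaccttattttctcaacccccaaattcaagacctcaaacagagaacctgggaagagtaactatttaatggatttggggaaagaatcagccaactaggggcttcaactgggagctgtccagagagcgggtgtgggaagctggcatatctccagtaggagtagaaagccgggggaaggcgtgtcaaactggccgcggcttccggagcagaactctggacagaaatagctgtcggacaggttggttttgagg

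Both strands were searched for 5 short motifs: GGACTTTCC (NF-kB), TGATGCAAT (ATF4 with C/EBP), TGANTCA (AP-1), GAAANNGAA (interferon-stimulated response element) and TTCNNNGAA (STAT). The table held start regions for 52 of the 68 genes and 8 of the 9 called ones. The Casp12 region held TTCTGGGAA at 2 places, 102 and 36 bases before the start, and matched the STAT motif, which 8.30% of the 32851 regions of this length hold. The regions of Casp1, Casp4 and Mlkl held none of the 5 letter strings as written. The NF-kB and ATF4 strings are single fixed forms, and other forms of these motifs were not searched. Among the other called genes the Nlrp6 region held TGAGTCA, a match to the AP-1 motif TGANTCA, which 7.81% of regions hold. The NF-kB string occurred in 0.344% of all regions, the ATF4 string in 0.192% and the interferon string in 8.56%. The 68 regions of cell death genes in the table, some genes having more than 1, held the AP-1 string in 8, the interferon string in 7 and the STAT string in 4. These are matches of letters and not sites of binding.

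Of the 20 NLRP genes, Aim2 and Pycard, limma called 0 higher and 1 lower, and 2 (Nlrp1c-ps and Aim2) were higher at an unadjusted p under 0.05. Over all genes 6.37% were called higher and 3.62% lower. Aim2 and 18 of the NLRP genes lay below the median signal, where 135 of all 11090 genes were called higher. Nlrp6, the sensor known from intestinal epithelium and also read strongly in this liver, was the member with the largest fall. Its signal was 7.77 and 7.50 on normal diet and 5.91 and 5.73 on MCD diet. The arrays were far apart, and the gene fell by 1.81 ± 0.15 (3.52-fold lower, limma adjusted p = 0.00191). Nlrp3, the sensor of crystals and membrane damage, read 1.91, 1.84, 1.82 and 2.36 in the order normal diet 1, normal diet 2, MCD diet 1 and MCD diet 2. These values lie near the floor of the array and overlap (difference 0.22 ± 0.20, adjusted p = 0.574). Aim2, the sensor of cytosolic DNA, read 2.27 and 2.05 on normal diet and 3.01 and 2.62 on MCD diet. Its arrays did not overlap, but the difference of 0.65 ± 0.17 did not pass (adjusted p = 0.0739). Pycard, which joins sensors to Casp1, read 3.43 and 3.0 on normal diet and 3.20 and 3.73 on MCD diet, with overlap (0.25 ± 0.23, adjusted p = 0.582).

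The other NLRP genes were dim. Nlrp12, a brake on inflammatory signalling, was the exception and read 4.72 and 5.47 on normal diet against 4.80 and 4.92 on MCD diet (-0.24 ± 0.25, adjusted p = 0.634). The remaining 18 had signals between 1.06 and 3.61 on any array. Of these, 17 differed by -0.32 to 0.31. The 18th, the pseudogene Nlrp1c-ps, read 2.20 and 2.22 on normal diet and 2.58 and 3.61 on MCD diet, so its difference of 0.88 ± 0.32 rested mostly on MCD diet replicate 2 (adjusted p = 0.158, and called without MCD diet replicate 1). Nlrp1, Nlrp4 and Nlrp9 genes have close copies that may share signal, which makes 13 of the 20 NLRP values uncertain. Several are germ-line or oocyte genes, and their signals here are near the bottom of the scale. Outside the set, 5 rows shared by Nlrp4c and Nlrp4e held 2 distinct sets of values. These were lower without overlap, by 0.67 ± 0.22 and 0.43 ± 0.12. In a fit of all 34472 rows they were not called (limma adjusted p = 0.156 and 0.115).

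Downstream, the pore gene Gsdmd and the cytokine genes Il18 and Il1b went the other way from Casp1, with calls that depended on the arrays. Gsdmd encodes gasdermin D, the pore of pyroptosis. Its signal was 5.69 and 5.71 on normal diet and 4.88 and 4.75 on MCD diet. The arrays were tight and separate, and the gene fell by 0.88 ± 0.12 (1.84-fold lower, limma adjusted p = 0.00969). A dimmer row of Gsdmd differed by -0.12, and the call was lost with the mean of both rows and without normal diet replicate 2 (adjusted p of 0.00516 to 0.0712 over the alternatives). Gsdme, which executioner caspases cut, read 2.56 and 2.90 on normal diet and 3.31 and 2.67 on MCD diet, with overlap (0.26 ± 0.24, adjusted p = 0.586). The other 9 gasdermin rows belong to Gsdma and Gsdmc relatives with close copies. They read 1.38 to 3.24 and differed by -0.28 to 0.17. Of the cytokine genes, Il18 read 6.15 and 5.71 on normal diet and 4.87 and 4.85 on MCD diet. It fell by 1.07 ± 0.17 (limma adjusted p = 0.0159), a call lost without either MCD diet array (0.00976 to 0.0738 over the alternatives). Il1b was dim, with a mean signal of 2.87, below the median of the genes tested. It read 3.18 and 3.25 on normal diet and 2.67 and 2.37 on MCD diet, so that it fell by 0.70 ± 0.15 (limma adjusted p = 0.0362). That call was lost with a replicate block (adjusted p of 0.0337 to 0.150 over the alternatives) and without any 1 of the 4 arrays.

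**Figure D3:**
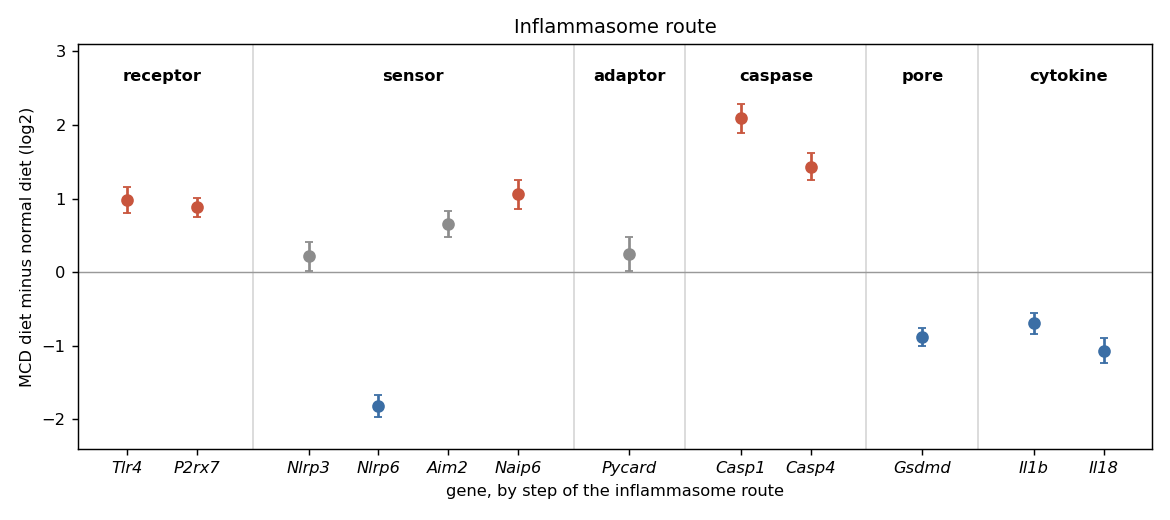
Difference between the diets (MCD diet minus normal diet, log2, bars are the standard error) for genes of the inflammasome route in the order receptor, sensor, adaptor, caspase, pore and cytokine. Red genes rose, blue genes fell and grey genes were not called. Casp1 and Casp4 lie above 1, while Gsdmd, Il1b and Il18 lie below 0 and the adaptor Pycard and the sensor Nlrp3 were not called.

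A list of inflammasome receptors, sensors and regulators outside the set added 30 measured genes, of which 6 rose and 2 fell (median 0.11). Over all genes 9.98% were called, and 18.1% of those above the median signal, where 20 of the 30 lay. Beside Il18 and Il1b, Tlr4, the receptor for lipopolysaccharide, rose by 0.98 ± 0.18 from a dim signal (2.69 and 2.24 to 3.50 and 3.39). P2rx7, the ATP-gated channel that triggers Nlrp3, rose by 0.88 ± 0.13 (3.84 and 3.72 to 4.58 and 4.75). Naip6, a flagellin sensor with close copies and therefore uncertain, rose by 1.06 ± 0.20, and Ifi205, a DNA sensor relative with close copies, by 1.08 ± 0.21. The remaining rises were those of Nek7, a partner of Nlrp3, at 0.60 ± 0.13, and Il18bp, which neutralises IL-18, at 0.57 ± 0.13. These 6 calls were lost when the second array of either diet was left out, all but that of P2rx7 also without MCD diet replicate 1, and those of Nek7 and Il18bp without normal diet replicate 1 as well. Those of Naip6, Nek7 and Il18bp were lost with a replicate block too, and that of Il18bp also under quantile normalization and with the intensity trend. The highest adjusted p among the alternatives was 0.109 for Tlr4, 0.0672 for P2rx7, 0.101 for Naip6, 0.112 for Ifi205, 0.151 for Nek7 and 0.198 for Il18bp.

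In the necroptosis route, the effector gene Mlkl was called and the kinase gene Ripk3 was not. Mlkl read 4.41 and 4.59 on normal diet and 6.25 and 6.46 on MCD diet. Both MCD diet arrays lay more than 1 above both normal diet arrays, and the rise was 1.85 ± 0.14 (3.61-fold, limma adjusted p = 0.00150). Ripk3, the kinase that phosphorylates MLKL, read 2.24 and 2.41 on normal diet and 2.16 and 2.27 on MCD diet. These values overlap at a dim signal (-0.11 ± 0.13, adjusted p = 0.688), and no difference was detectable at this signal. Ripk4, a kinase of epithelial differentiation, differed by 0.05 ± 0.13. Ripk1 and Ripk2 were not analysed here.

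Of the 4 measured genes at the death receptor, limma called 0, and 1 (Cflar) had an unadjusted p under 0.05. The share called was 9.98% of all genes, and 18.1% of those above the median signal, where 3 of the 4 lay. Fas, the death receptor of hepatocytes, read 5.92 and 6.25 on normal diet and 6.05 and 6.46 on MCD diet (0.17 ± 0.19, adjusted p = 0.659). Its ligand gene Fasl, made by T and NK cells, read 2.15, 2.11, 2.06 and 1.83 over the same order of arrays, near the floor (-0.19 ± 0.13, adjusted p = 0.476). Fadd, the adaptor, read 4.66 to 4.76 on all 4 arrays (0.01 ± 0.12). Cflar, the decoy that keeps caspase-8 in check, read 7.49 and 7.15 on normal diet and 6.95 and 6.79 on MCD diet. Its arrays did not overlap, though the difference of -0.45 ± 0.16 did not pass (adjusted p = 0.150). Casp8 itself, the initiator at death receptors and also an inhibitor of necroptosis, read 7.17 and 7.43 on normal diet and 7.70 and 7.89 on MCD diet (0.49 ± 0.15, adjusted p = 0.10). The arrays of Casp8 did not overlap either, and its unadjusted p in limma was 0.0155.

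From a list of 29 other measured death receptor genes 4 rose and 0 fell in limma (median 0.10, and 9 had an unadjusted p under 0.05). Over all genes 9.98% were called, and 18.1% of those above the median signal, where 24 of the 29 lay. Tnfrsf12a, the receptor for TWEAK, rose by 1.30 ± 0.21 (4.12 and 4.17 to 5.75 and 5.13). Tnfrsf10b, the receptor for TRAIL, rose by 1.03 ± 0.22 (2.08 and 2.37 to 3.55 and 2.95), and Tnfaip3, which restrains NF-kB signalling, by 0.85 ± 0.17. Tnfaip8l2 rose by 0.79 ± 0.17. Each of the 4 calls was lost without normal diet replicate 1. All but that of Tnfaip8l2 were lost without normal diet replicate 2, all but that of Tnfrsf12a without MCD diet replicate 1, and that of Tnfaip8l2 without MCD diet replicate 2. Tnfrsf10b also lost its call with a replicate block and Tnfaip8l2 under quantile normalization. The highest adjusted p among the alternatives was 0.0672 for Tnfrsf12a, 0.147 for Tnfrsf10b, 0.130 for Tnfaip3 and 0.144 for Tnfaip8l2.

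Among the apoptotic caspases Casp2 was called. This initiator, linked to DNA damage and lipid stress, read 4.03 and 3.72 on normal diet and 4.69 and 4.84 on MCD diet. The arrays did not overlap and the rise was 0.89 ± 0.15 (1.86-fold, limma adjusted p = 0.0191). Leaving out normal diet replicate 2 or 1 of the MCD diet arrays, whichever it was, ended the call (adjusted p of 0.0141 to 0.0835 over the alternatives). Casp6, an executioner, read 6.71 and 6.05 on normal diet and 7.78 and 7.25 on MCD diet. Its replicates were spread, and the difference of 1.13 ± 0.27 missed the threshold (2.19-fold, adjusted p = 0.0517, range 0.0114 to 0.204 over the alternatives). It passed in 7 of 12 alternatives. Casp9, the initiator of the mitochondrial route, read 4.52 and 4.47 on normal diet and 4.27 and 4.42 on MCD diet (-0.15 ± 0.12, adjusted p = 0.533). Casp14, a keratinocyte caspase, was dim.

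**Figure D4:**
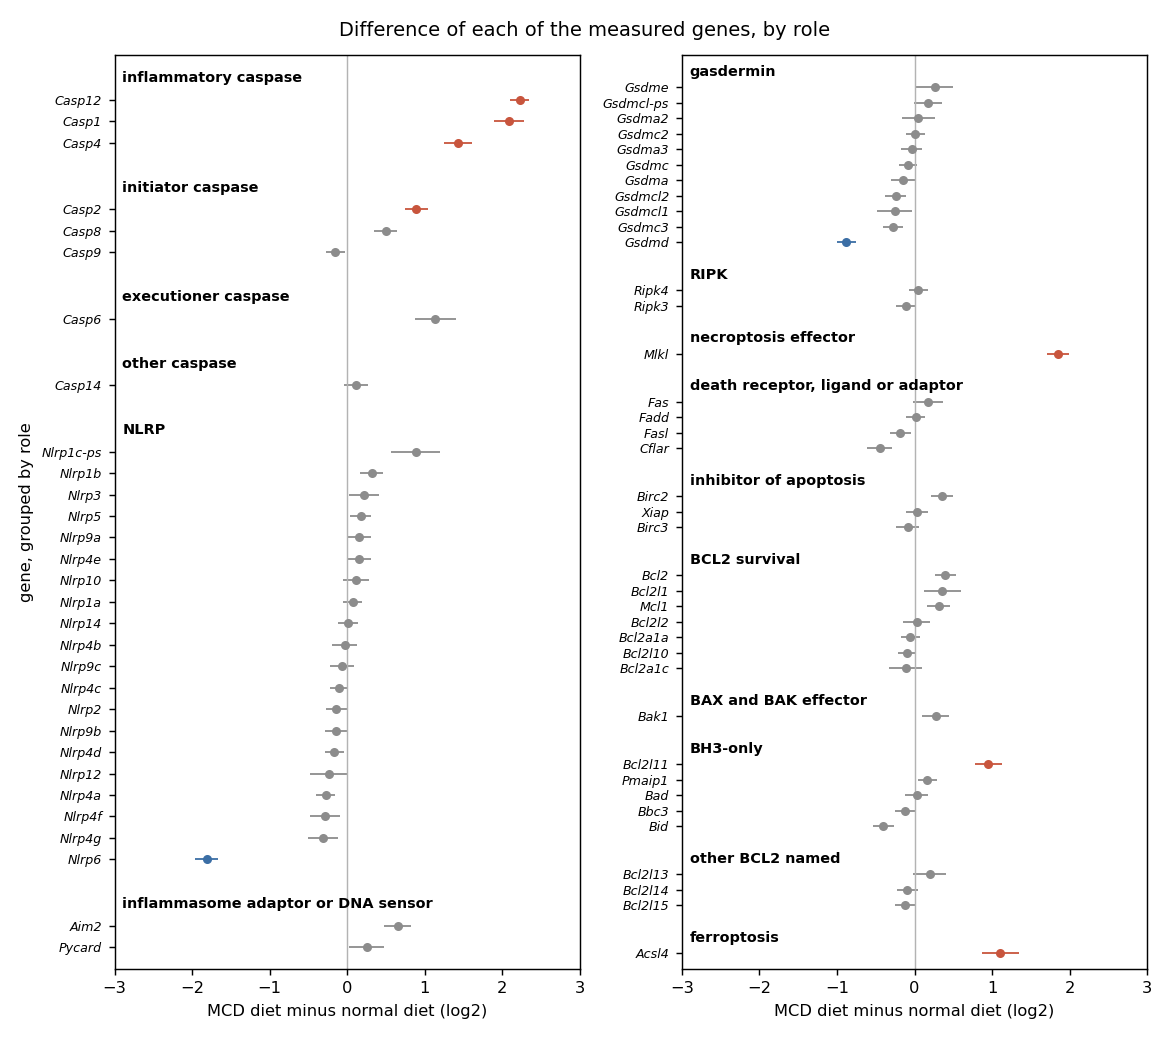
Difference between the diets (MCD diet minus normal diet, log2, bars are the standard error) of all 68 cell death genes, grouped by role. Red genes rose, blue genes fell and grey genes were not called. The 3 inflammatory caspases, Mlkl, Acsl4 and the uncalled Casp6 lie above 1, Nlrp6 lies below -1, and 56 of the 59 genes not called lie within 0.5 of 0.

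The BCL2 family, which controls the opening of mitochondria, gave 1 call among 16 measured genes (median 0.03). Over all genes 9.98% were called, and 18.1% of those above the median signal, where 8 of the 16 lay. Bcl2l11 encodes BIM, a BH3-only protein that neutralises the survival members. It read 3.38 and 3.76 on normal diet and 4.65 and 4.39 on MCD diet. Both MCD diet arrays lay above, and the gene rose by 0.95 ± 0.18 (1.93-fold, limma adjusted p = 0.0252), a call that ended when any array but normal diet replicate 2 was left out (0.0205 to 0.117 over the alternatives). Among the other activators of death, Bid, which caspase-8 cuts, read 4.27 and 4.50 on normal diet and 3.97 and 4.0 on MCD diet (-0.40 ± 0.13, adjusted p = 0.131). The p53 targets Bbc3, at -0.12 ± 0.13, and Pmaip1, at 0.17 ± 0.12, were dim, as was the single-gene row of Bad at 0.03 ± 0.15. A brighter row shared by Bad and Gpr137, outside the set, differed by -0.19 ± 0.13 without overlap. It was not called in a fit of all rows (limma adjusted p = 0.488). Bak1, which forms the mitochondrial pore, read 4.64 and 4.81 on normal diet and 5.21 and 4.78 on MCD diet, with overlap (0.27 ± 0.18, adjusted p = 0.423). Bax was not analysed here.

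Of the 7 measured survival members of the family limma called 0, and 1 (Bcl2) had an unadjusted p under 0.05. The share called was 9.98% of all genes, and 18.1% of those above the median signal, where 4 of the 7 lay. Mcl1, on which hepatocytes depend, read 7.16 and 7.10 on normal diet and 7.60 and 7.28 on MCD diet (0.31 ± 0.15, adjusted p = 0.280). Bcl2l1, which encodes BCL-XL, read 4.50 and 4.92 on normal diet and 5.35 and 4.79 on MCD diet, with overlap (0.36 ± 0.23, adjusted p = 0.421). Bcl2 read 3.44 and 3.32 on normal diet and 3.68 and 3.87 on MCD diet. Its arrays did not overlap, but the difference of 0.40 ± 0.13 did not pass (adjusted p = 0.134). Bcl2l2 differed by 0.03 ± 0.17 and Bcl2l10 by -0.10 ± 0.12. Bcl2l13, Bcl2l14 and Bcl2l15 lay between -0.12 and 0.20. The inhibitors of apoptosis bind caspases or mark signalling proteins with ubiquitin. Of these, Birc2 differed by 0.35 ± 0.14, Birc3 by -0.08 ± 0.15 and Xiap by 0.03 ± 0.14. All of them lay above the median signal, where 18.1% of all genes were called. Limma called 0 of these 3, and 1 (Birc2) had an unadjusted p under 0.05.

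The Bcl2a1 genes, survival members found mainly in leukocytes, gave different answers by row. They are near-identical copies, and the single-gene rows were not called: Bcl2a1a read 2.91 and 2.96 on normal diet and 2.91 and 2.86 on MCD diet, and Bcl2a1c differed by -0.12 ± 0.21. Rows that name several copies at once stay outside the set and outside the main test. The row for Bcl2a1a and Bcl2a1b read 2.24 and 2.19 on normal diet and 4.07 and 3.26 on MCD diet. The row for Bcl2a1a, Bcl2a1b and Bcl2a1d read 2.70 and 2.38 on normal diet and 3.88 and 3.47 on MCD diet. Both rows were higher on the MCD diet arrays, and were picked with their values known from 12 shared rows of genes that the rule names. In a fit of all 34472 rows, added after these values were seen, in which 6.54% of rows were called, the former differed by 1.45 ± 0.26 (2.73-fold, limma adjusted p = 0.0359) and the latter by 1.14 ± 0.19 (2.20-fold, limma adjusted p = 0.0284). The former call was lost without either normal diet array, and the latter when the second normal diet array or the first MCD diet array was left out (highest adjusted p of 0.126 and 0.108). Which copy gives this signal cannot be told from the rows. No other row of the 12 was called in that fit.

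**Figure D5:**
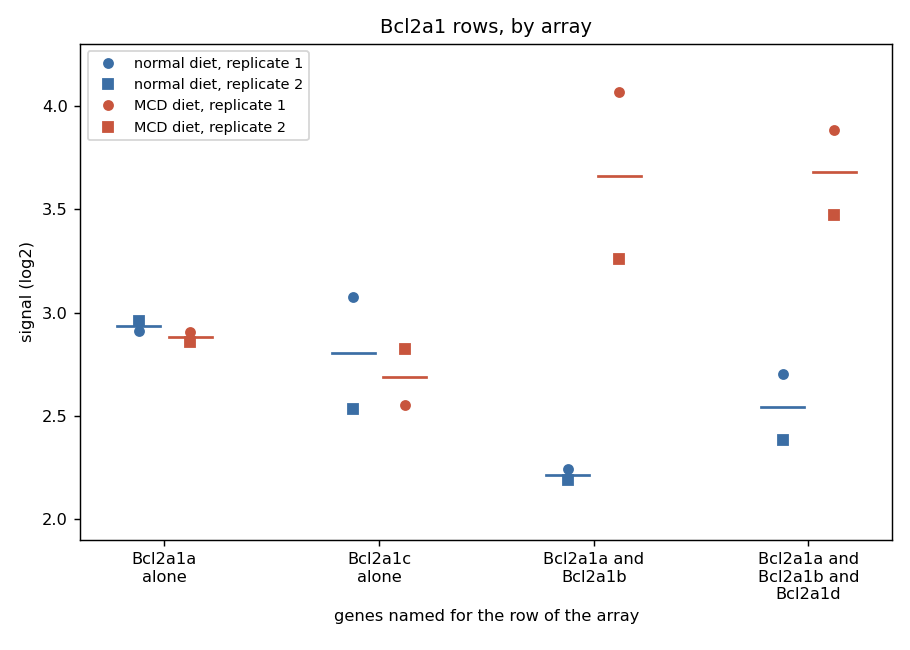
Signal (log2) on each array for the 4 rows that name Bcl2a1 genes. Circles and squares are replicates 1 and 2, bars are group means, blue is normal diet and red is MCD diet. The single-gene rows stay between 2.53 and 3.07 in both diets, while the shared rows lie at 3.26 to 4.07 on the MCD diet arrays.

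Among 22 other measured genes of the mitochondrial route 1 rose and 1 fell (median -0.01). Over all genes 9.98% were called, and 18.1% of those above the median signal, where 19 of the 22 lay. Apaf1, the scaffold on which cytochrome c activates Casp9, rose by 1.09 ± 0.15 (3.68 and 3.79 to 4.99 and 4.66, limma adjusted p = 0.00997), a call kept in all 12 alternatives. Bik, another BH3-only gene, fell by 0.68 ± 0.13 (4.25 and 4.43 to 3.65 and 3.67), a call lost without any 1 of the 4 arrays (adjusted p of up to 0.126).

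Acsl4, the lipid enzyme that sensitises cells to ferroptosis, read 7.55 and 7.05 on normal diet and 8.66 and 8.15 on MCD diet. The replicates were spread within each diet yet the diets did not overlap, and the gene rose by 1.11 ± 0.24 (2.15-fold, limma adjusted p = 0.0387). Leaving out normal diet replicate 2 or the first MCD diet replicate ended the call (adjusted p of 0.0114 to 0.149 over the alternatives). Of 25 other measured genes linked to ferroptosis 3 rose and 2 fell (median 0.07). Over all genes 9.98% were called, and 18.1% of those above the median signal, where 20 of the 25 lay. Sat1, a polyamine enzyme, rose by 1.04 ± 0.19, Hmox1, the heme oxygenase, by 0.91 ± 0.16, and Nfe2l2, the antioxidant regulator NRF2, by 0.67 ± 0.13. Gch1, which makes tetrahydrobiopterin, fell by 1.43 ± 0.21 and Cisd1, a mitochondrial iron-sulfur protein, by 0.99 ± 0.13. Gpx4, the peroxidase that blocks ferroptosis, differed by 0.33 ± 0.12 and was not called (adjusted p = 0.165). The calls of Hmox1, Nfe2l2 and Gch1 were lost without normal diet replicate 1, those of Sat1 and Nfe2l2 without normal diet replicate 2, those of all but Gch1 among these without MCD diet replicate 1, and that of Nfe2l2 without MCD diet replicate 2. The highest adjusted p among the alternatives was 0.109 for Sat1, 0.0964 for Hmox1, 0.124 for Nfe2l2 and 0.0506 for Gch1, while Cisd1 kept its call in all 12.

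Markers of other liver cells moved between the same arrays. The share called, to be set beside each list, was 9.98% of all genes and 18.1% of those above the median signal. Of 9 macrophage markers 8 rose and 0 fell, with a mean log2 signal over the list of 4.02 and 3.99 on normal diet and 7.37 and 6.75 on MCD diet. Of 6 cholangiocyte markers 6 rose (means of 3.05 and 2.96 against 4.67 and 4.66), and of 9 stellate cell and fibroblast markers 7 rose (4.96 and 4.72 against 6.18 and 6.45). Kupffer cell markers fell in 3 of 6 and rose in 0 (5.14 and 5.15 against 4.70 and 4.20). T and NK cell markers gave 0 calls of 8 in limma (3 with an unadjusted p under 0.05), B cell markers 0 of 3 (1) and neutrophil markers 0 of 6 (2), all at dim means of 2.03 to 2.87. Of 8 hepatocyte markers 1 fell and 0 rose in limma (5 with an unadjusted p under 0.05). All 8 differences were below 0, for 7 of them without overlap of the diets, and the list means were 10.95 and 10.97 on normal diet against 10.59 and 10.38 on MCD diet. Of all 22180 genes 12371 had a difference below 0. The diets did not overlap for 54.2% of all genes, with MCD diet below for 29.2%. Of 6 endothelial markers 2 fell and 0 rose (5.93 and 5.91 against 5.59 and 5.68). Casp1, Casp4, Casp12, Mlkl and the shared Bcl2a1 rows were high on the MCD diet arrays, where the macrophage, biliary and fibroblast lists were high too. With only these diets compared, the same holds for any gene called higher, so it ties no gene to a cell type. The part of these cells in the result was not tested.

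For 5 further genes that the rule names (Bcl2a1b, Bcl2a1d, Bcl2l12, Gsdmc4 and Nlrp5-ps) the array has rows shared with another gene, and these rows gave no member of the set.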

How the data were processed

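Total liver RNA from 4 samples, 2 per diet, was labelled with biotin and read on Mouse Gene 2.1 ST array strips, per the labels' protocols. The deposited values are the authors' log2 signals. The submitters' processing notes name Transcriptome Analysis Console, and how it summarized and normalized them was not stated in the sources used here. The log base was inferred from the values, and all fold changes rest on it. Array medians were 2.57 to 2.65, and background levels were not used here. The number of arrays limits the precision.

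Of 34472 rows 23521 name 1 gene in the platform annotation, 1814 several and 9137 none. For each gene the single-gene row with the highest mean over the 4 arrays was used, and 4 of the 68 members have more than 1 such row. All 68 matched the RefSeq gene table of GRCm38.p6 by gene ID. Limma 3.58.1 in R 4.3.3 (two-sided, no block, no filter, Benjamini-Hochberg over all 22180 genes, threshold 0.05) compared the diets. It was also run on simulated data with variances drawn from its own fit and added shifts larger than most differences called here. That run is therefore no check of these calls. The members, lists and motifs were chosen with earlier results of these data known. Named with values are called members, those differing by 1 or more without overlap, fixed core genes and called genes of 4 pathway lists. Some of the fixed core genes and of the called list genes are given by their difference alone, without array values. Up to 6 genes were taken per list, and Nek7, Il18bp, Gpx4, Pdgfd, Gria4, Msantd4 and Ddi1 stand outside that rule and were picked with their values known. The 12 alternatives were other normalizations, filters on dim genes, an intensity trend, other use of a gene's rows, a block for the replicate number, and each array left out in turn. All columns of per-sample values were used.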

Additional observations from a re-analysis of the deposited data

How the results depend on the processing

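The count of called cell death genes stayed within 1.5 times its value of 9 under all 12 alternatives, with a range of 6 to 11. It was 6 to 9 when 1 array was left out, 5 to 7 of them higher and 1 to 2 lower. The calls of Casp1, Casp4, Casp12, Mlkl and Nlrp6 held in all 12, while those of Acsl4, Bcl2l11, Casp2 and Gsdmd were lost in at least 1. Averaging all rows of a gene left 1 lower gene. Over all genes, 2214 were called, and 1050 to 1493 when 1 array was left out (1321 and 1093 without normal diet replicate 1 or 2, 1050 without MCD diet replicate 1).

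The samples share only a replicate number. Deviations of same-numbered arrays correlated at 0.0537 across genes, and with a replicate block 11 cell death genes were called (9 higher, 2 lower), with Casp6 and Aim2 added, and 1950 genes in all. Casp6 was also called under quantile normalization, median centring, both filters on dim genes and the intensity trend, and without normal diet replicate 1. Nlrp1c-ps was called without MCD diet replicate 1. Among 1004 values of 90 genes or shared rows under the alternatives, 0 called values changed sign. The cause of each change was not tested. With 2 arrays per diet and no measure of background, differences of dim genes such as Nlrp3, Ripk3 and Fasl could not be resolved.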
